A study of Mus musculus with 15 samples.

Results

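The response of mouse primary hepatocytes to glucagon was described from 6 of the 15 RNA sequencing libraries of the series, 3 from cells given 100 nM glucagon and 3 from cells given vehicle. The members are genes, and a gene was tested if it had at least 10 scaled reads in at least 3 of the 15 libraries, which 12703 of the 24347 entries of the deposited table did. The series was made to learn how interleukin-13 (IL-13) alters the response of liver cells to the gluconeogenic stimuli glucagon and cAMP, and its other groups received cAMP, cAMP with IL-13, or glucagon with IL-13. None of the 6 libraries described here had IL-13. Glucagon and vehicle cells alike were wild type, were isolated by collagenase perfusion from livers of mice aged 8 to 10 weeks, were plated in serum-containing medium, and were stimulated for 3 h after a preceding incubation of 2 h. The strain is not settled, because the labels number it from C57BL/12 to C57BL/14 over the glucagon libraries and from C57BL/18 to C57BL/20 over the vehicle libraries, while the study's methods name BALB/c unless stated otherwise. Nothing in the labels tells if a group's 3 libraries are from different animals or culture dishes, and the p-values therefore cover library-to-library spread alone, part or all of which may be technical. The vehicle libraries carry no number that ties them to a sample and are called a, b and c.

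Glucagon is the pancreatic hormone of fasting. Its receptor on hepatocytes acts through the stimulatory G protein and adenylyl cyclase to raise cAMP, which frees the catalytic subunits of protein kinase A (PKA). PKA phosphorylates CREB, a transcription factor that binds cAMP response elements, and releases its CRTC coactivators from restraint by salt-inducible kinases, and phosphodiesterases end the signal by breaking down cAMP. The pathway is best known in liver for switching on the gluconeogenic enzymes and their coactivator PGC-1alpha, for glycogen breakdown and for amino acid catabolism.

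Values are scaled reads, that is, estimated reads per gene multiplied by a factor per library that puts the libraries on a common scale, and differences are between means of log2(scaled reads + 1), glucagon minus vehicle, with the standard error (SE) of a limma fit over all 15 libraries and Benjamini-Hochberg adjusted p. A gene was called at an adjusted p under 0.05. Levels in scaled reads depend on transcript length and are compared here only within a gene. The libraries held an estimated 17389756 to 18838948 reads with glucagon and 17984334 to 23654973 with vehicle. Vehicle library a stood apart: 95 and 157 genes differed by more than 2-fold between it and libraries b and c, against 6 between b and c and 6 to 13 between pairs of glucagon libraries. Markers of hepatocytes summed to 1289750.0 to 1359460.0 scaled reads with glucagon and 1177130.0 to 1308670.0 with vehicle, so both groups read as hepatocytes. Markers of Kupffer and other myeloid cells summed to 6764 to 6937 scaled reads with glucagon and 6612 to 6851 with vehicle, with none of 16 tested members called, and those of sinusoidal endothelium to 2710.0 to 2877 scaled reads with glucagon and 2244 to 2838 with vehicle, with 1 of 17 called. Stellate cell and fibroblast markers summed to 479 to 547 scaled reads with glucagon and 365 to 544 with vehicle, with none of 11 called. Cholangiocyte markers summed to 20545 to 20809.7 scaled reads with glucagon and 21244 to 22003 with vehicle, without overlap. Of the 10 cholangiocyte markers listed, 4 had at least 50 scaled reads in all 6 libraries, 5 were tested and 1 was called. Lymphocyte markers summed to 5.16 to 14.1 scaled reads with glucagon and 9.57 to 14.3 with vehicle, with none abundant enough to test. Fewer cells of a type and less RNA per cell cannot be told apart in such bulk samples.

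Glucagon changed 2399 genes, 18.9% of those tested, and the changes were balanced in number, with 1188 genes higher (9.35%) and 1211 lower (9.53%). The fit of the 6 libraries alone called 629 higher and 665 lower, and scaling by library total in place of the deposited scaling gave 956 higher and 1502 lower. Most called changes were small, with a median of 0.41 on the log2 scale among higher genes and 0.42 among lower genes. Among genes called with a log2 difference of at least 1, 146 were higher and 119 lower, and at 3 or more 13 were higher and 3 lower. Among the third of genes with the most reads 625 were called higher and 409 lower, whereas among the third with the fewest 209 were higher and 282 lower. The 3 glucagon libraries lay wholly above or wholly below the 3 vehicle libraries for 28.5% of all tested genes. Genes picked by the size of their change had to be without overlap, so its absence is no further support for them. Calls differ in how firmly they stand: 617 of the higher and 617 of the lower genes were called in the main fit, in each of 6 fits that left out a compared library, and in the fit of the 6 libraries alone. These are called stable calls below, and a gene said to have risen or fallen is among them unless stated otherwise. Stable counts of a list are to be read beside these 617 in each direction among 12703 tested genes. All other counts of a list are to be read beside 9.35% higher and 9.53% lower.

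**Figure D1:**
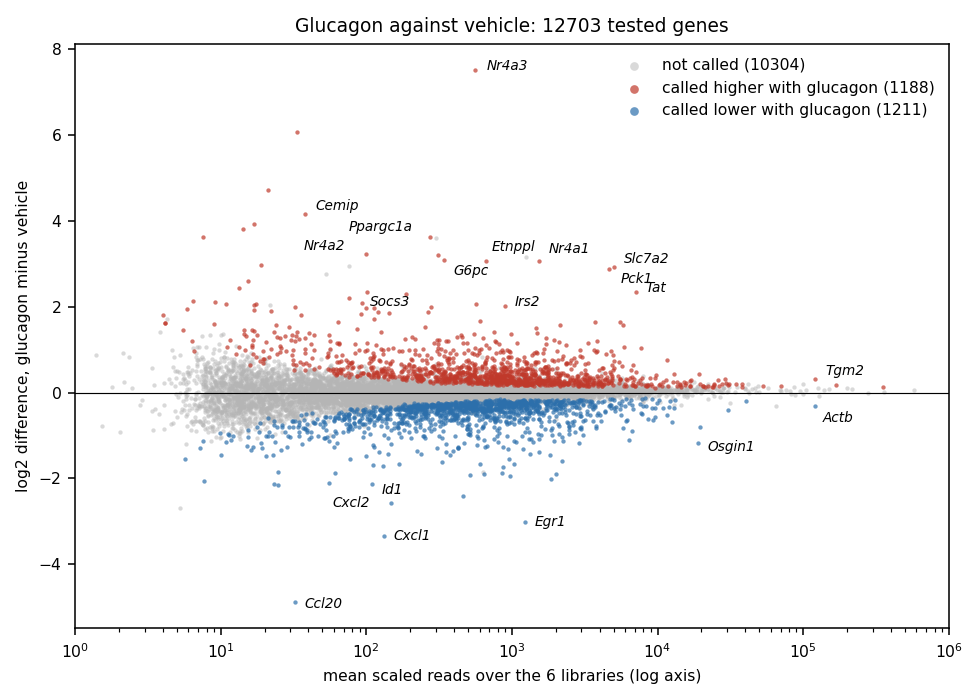
Log2 difference (glucagon minus vehicle) against the mean scaled reads over the 6 libraries on a log axis, one point per tested gene, with 1188 genes called higher in red, 1211 called lower in blue and the rest in grey. Nr4a3 has the highest point at 7.51 and Ccl20 the lowest at -4.88, and called genes occur over the whole range of levels.

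The NR4A genes, which encode orphan nuclear receptors known as immediate targets of cAMP signalling, all rose, and Nr4a3 had the largest rise of all tested genes. Nr4a3 (chr4:48045153-48086447) stood at 1207, 1101 and 1047 scaled reads with glucagon, against 4.20, 4.78 and 6.65 with vehicle. Its log2 difference was 7.51 ± 0.11 (SE, adjusted p = 9.98e-19). Nr4a1 (chr15:101254269-101274795) read 2523, 2836 and 2917 with glucagon and 302, 341 and 335 with vehicle, a log2 difference of 3.07 ± 0.067. Nr4a2 (chr2:57106830-57124003) read 187, 188 and 166 with glucagon and 13.6, 18.3 and 23.8 with vehicle, a log2 difference of 3.24 ± 0.14. Every glucagon library was several times above every vehicle library for all 3 genes. The rule that picked the largest rises required groups without overlap. Ppargc1a (chr5:51454250-51567726), which encodes the coactivator PGC-1alpha, read 548, 517 and 451 with glucagon and 25.2, 45.5 and 54.2 with vehicle, a log2 difference of 3.63 ± 0.19 (adjusted p = 3.26e-09).

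The stretches before the transcription starts of these genes are shown because the palindrome TGACGTCA, the cAMP response element (CRE), and its TGACG core, read as CGTCA on the other strand, are the letters that CREB binds. They come from RefSeq windows on GRCm38.p6, each from 250 bases before to 50 bases after a start, and are written 5′ to 3′ on the strand of the gene in lower case, with every core in capitals. The Nr4a3 stretch (chr4:48045062-48045174, plus strand) holds 4 cores, at 231, 213, 205 and 147 bases before the start. The Nr4a1 stretch (chr15:101266601-101266822, plus strand) also holds 4, at 233, 213, 69 and 40 bases, and the Nr4a2 stretch (chr2:57124098-57124215, minus strand) holds 4, at 200, 144, 123 and 111 bases. Ppargc1a (chr5:51567758-51567786, minus strand) has 1 core 49 bases before its start, and Pck1 (chr2:173152971-173152999, plus strand) has 1 at 90 bases. Slc25a25 (chr2:32424197-32424228, minus strand), a mitochondrial carrier described below, has the full palindrome 150 bases before 1 of its 3 annotated starts.
Nr4a3: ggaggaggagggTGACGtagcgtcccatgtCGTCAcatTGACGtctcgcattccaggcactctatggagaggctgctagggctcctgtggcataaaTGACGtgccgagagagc
Nr4a1: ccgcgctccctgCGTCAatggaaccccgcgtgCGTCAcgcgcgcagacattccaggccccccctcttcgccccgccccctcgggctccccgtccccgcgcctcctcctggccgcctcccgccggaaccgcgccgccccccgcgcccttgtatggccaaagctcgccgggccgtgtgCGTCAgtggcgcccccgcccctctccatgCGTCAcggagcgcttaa
Nr4a2: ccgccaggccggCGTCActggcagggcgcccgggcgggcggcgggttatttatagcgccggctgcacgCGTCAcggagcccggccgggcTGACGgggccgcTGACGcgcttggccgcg
Ppargc1a: ggtgccctcccaCGTCActgagctccagt
Pck1: gcctgccccttaCGTCAgaggcgagcctc
Slc25a25: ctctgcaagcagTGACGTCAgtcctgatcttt

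Only stretches that hold a core were printed. The windows of G6pc, Tat, Etnppl, Irs2, Pde4d, Socs3, Cemip, Afp and Tnfaip6, which also rose, hold neither the core nor the palindrome. Among genes that fell, the window of Epha2 holds 1 full palindrome, that of Cxcl1 2 cores and that of Hspa5 1 core. Across genes the letters were common in both directions of change. A window was on file for 892 of the 1188 genes called higher, 947 of the 1211 called lower and 9684 of all tested genes, and a gene counted as holding a motif if any of its windows did on either strand, with a full site also counting as a core on each strand. The core was in 40.2% of genes called higher, 31.7% of those called lower and 35.2% of all tested genes. At least 3 cores in a window were found in 38 genes called higher (4.26%), 15 called lower (1.58%) and 252 of all tested genes (2.60%). The full palindrome was in 5.04% of genes called higher, 3.59% of those called lower and 3.56% of all tested genes. Among the 101 genes with a window that were called higher by at least 1 on the log2 scale, 41 held the core and 5 the full site, and among the 78 called lower by as much 18 held the core and 2 the full site. Over all 32851 windows of the reference the core was in 20.8% and the full site in 1.79%. Such matches are descriptions of letters and not binding sites.

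The glucagon receptor did not pass the test, while an adenylyl cyclase and several enzymes that break down cAMP rose. Of 22 tested genes from the receptor to PKA, 3 were called higher and 1 lower (13.6% higher, beside 9.35% of all tested genes), with a median of 0.058, beside 0.02 over all tested genes. Gcgr, the glucagon receptor, read 2097, 2268 and 2370.2 with glucagon and 2364, 2403 and 2124 with vehicle, overlapping groups with a log2 difference of -0.033 ± 0.062 (adjusted p = 0.77). Gnas, the stimulatory G protein, differed by 0.069 ± 0.038, and the catalytic subunits Prkaca and Prkacb by -0.0064 ± 0.058 and 0.055 ± 0.08, none past the threshold. Adcy9, an adenylyl cyclase, rose to 1142, 1092 and 1004 with glucagon, against 361, 545 and 551 with vehicle (log2 difference 1.17 ± 0.12). Rapgef4, the cAMP-activated exchange factor EPAC2, rose by 0.68 ± 0.074 and Prkar1a, a regulatory subunit that restrains PKA, by 0.27 ± 0.044. The cyclase Adcy1 was called lower at -0.69 but not in the fit of the 6 libraries (adjusted p = 0.0552).

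Of 17 phosphodiesterase genes 5 were called higher (29.4%, beside 9.35% of all tested genes) and none lower, all 5 stably, and the list median was 0.19. Leaving out vehicle library a added 1 lower call. Pde4d, a cAMP-specific enzyme, read 974, 898 and 884 with glucagon and 198, 223 and 238 with vehicle, a log2 difference of 2.06 ± 0.068 (adjusted p = 1.37e-13). The groups did not overlap, which the rule that picked the largest rises required. Pde10a rose by 1.52 ± 0.13, Pde4b by 0.57 ± 0.073, Pde3b, the enzyme that insulin activates, by 0.53 ± 0.079, and Pde8a by 0.45 ± 0.067. Pde3a had a log2 difference of 1.04 ± 0.41 at 9.03 ± 3.94 scaled reads with glucagon and 3.83 ± 1.74 with vehicle (SD, n = 3 each) and did not pass, except without glucagon library 3 (1.35, adjusted p = 0.0422). Among regulators of G protein signalling, receptor kinases, arrestins and anchors, 1 of 22 (4.5%) was called higher and 3 (13.6%) lower. Over all tested genes 9.35% were higher and 9.53% lower. Rgs16, which speeds the shut-off of G proteins, fell to 141, 145 and 144 with glucagon, against 821, 758 and 741 with vehicle (log2 difference -2.42 ± 0.079). Rgs3 and the receptor kinase Grk5 fell (-0.82 and -0.50).

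Within the CREB machinery the inducible repressor and the salt-inducible kinases Sik1 and Sik3 rose, and CREB itself did not pass the threshold. Of 27 tested genes 6 (22.2%) were called higher, 5 of them stably, and 5 (18.5%) lower, 1 of them stably. Over all tested genes 9.35% were higher and 9.53% lower. The lower calls ranged from 2 with glucagon library 3 or vehicle library c left out to 8 with vehicle library a left out. Crem, whose short ICER forms repress CRE promoters, read 966, 900.0 and 899.6 with glucagon and 326, 262 and 286 with vehicle (log2 difference 1.66 ± 0.078, adjusted p = 2.10e-11). Sik1, which holds CRTC coactivators in the cytoplasm, read 7859.5, 9159 and 8199 with glucagon and 2309.8, 2939 and 2784 with vehicle (log2 difference 1.65 ± 0.083). For both genes all glucagon libraries were above all vehicle libraries, which for Sik1 the rule that picked the largest gains in scaled reads required. Sik3 rose by 0.75 ± 0.12 and Ppargc1b, which encodes PGC-1beta, by 0.69 ± 0.16, while Atf3, a stress-induced factor of the family, fell by 0.39 ± 0.043. The remaining salt-inducible kinase Sik2 differed by 0.34 ± 0.18 and did not pass (adjusted p = 0.222). Creb1 differed by -0.05 ± 0.087 (adjusted p = 0.749). Crtc2, the main CREB coactivator of liver, was called lower at -0.25 ± 0.082, but not with glucagon library 1 or 3 or vehicle library b or c left out, nor in the 6-library fit (adjusted p = 0.134).

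**Figure D2:**
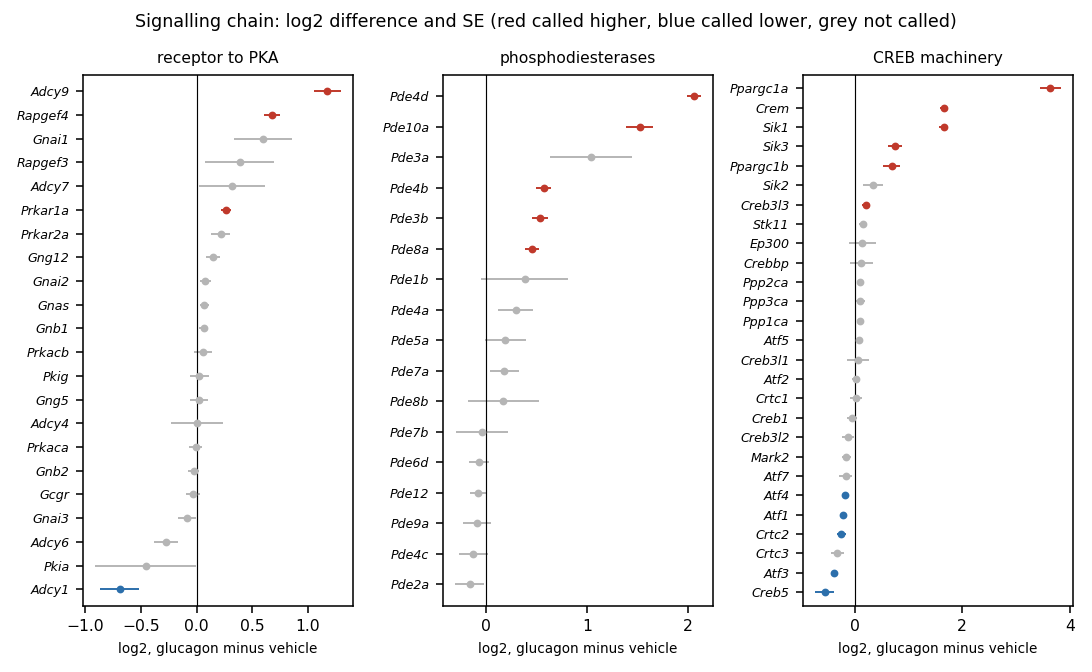
Log2 difference (glucagon minus vehicle) with its SE for the tested genes from receptor to PKA (22), phosphodiesterases (17) and CREB machinery (27), red where called higher, blue where called lower and grey where not called. Gcgr, Gnas and Prkaca lie near 0, while Pde4d at 2.06, Crem at 1.66, Sik1 at 1.65 and Ppargc1a at 3.63 stand to the right of their lists.

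Among early transcription factors more genes were called lower than higher. Of 44 AP-1, EGR, NR4A, KLF and related factors 11 were called higher and 21 lower (median -0.25), 8 and 17 of them stably. Called lower were thus 47.7% of the list, beside 9.53% of all tested genes. Egr1, a zinc finger factor induced by growth factor signalling, read 269.6, 283 and 252 with glucagon and 1989.8, 2234 and 2302 with vehicle, a log2 difference of -3.01 ± 0.10 (adjusted p = 3.17e-13). Fosl1, an AP-1 subunit, read 209, 214 and 216 with glucagon and 721, 905 and 832 with vehicle (log2 difference -1.93 ± 0.11). Id1, an inhibitor of bHLH factors and a known target of BMP signalling, read 34.8, 54.4 and 33.0 with glucagon and 201, 175 and 157 with vehicle (log2 difference -2.13 ± 0.17). The groups did not overlap for any of these 3 genes, which the rule that picked the largest falls required. Klf5 fell by 2.12 ± 0.33 at low levels (20.1 ± 4.08 scaled reads with glucagon and 91.5 ± 23.1 with vehicle, SD, n = 3 each). Further falls were Ier2 (-1.54), the Notch target Hes1 (-1.21), Ier3 (-1.13), Cited2 (-1.10), Fos (-0.90) and Myc (-0.82), and Junb fell by 0.28. Klf4 rose to 433, 474 and 417 with glucagon, against 88.2, 114 and 131 with vehicle (log2 difference 2.00 ± 0.11). Klf15, a factor known for amino acid catabolism in fasting, rose by 1.11 ± 0.093, the AP-1 subunit Fosl2 by 0.83 and Id2 by 0.71. Thus AP-1 members moved in both directions, Fosl2 upwards and Fos, Fosl1 and Junb downwards.

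Of the gluconeogenesis genes, Pck1 and G6pc, which encode the step out of oxaloacetate and the last step to glucose, rose steeply, while Pcx did not pass the threshold and Fbp1 passed it only with vehicle library a left out or weighted down. Of 21 tested genes 9 (42.9%) were called higher, 7 stably, and 2 (9.5%) lower, with a median of 0.19. Over all tested genes 9.35% were higher and 9.53% lower, so the share of lower calls was no different. G6pc (chr11:101367561-101377903), the catalytic subunit of glucose-6-phosphatase, read 619.6, 607 and 602 with glucagon and 76.6, 67.0 and 67.5 with vehicle, a log2 difference of 3.10 ± 0.064 (adjusted p = 1.45e-16). Pck1 (chr2:173153048-173159273), the cytosolic phosphoenolpyruvate carboxykinase, read 8136, 8188 and 8339 with glucagon and 1142, 1192 and 1015 with vehicle, a log2 difference of 2.88 ± 0.051 (adjusted p = 1.22e-17). The libraries of each group lay close together for both genes. The groups were far apart, and both genes are among the largest rises, whose rule required groups without overlap. Fbp1, fructose-1,6-bisphosphatase, read 5789.7, 5963 and 6342 with glucagon and 5992, 5368 and 4563 with vehicle, which overlap, with a log2 difference of 0.19 ± 0.07 (adjusted p = 0.0642). Without vehicle library a Fbp1 was called at 0.28 (adjusted p = 6.77e-04). Pcx, pyruvate carboxylase, read 9099.8, 10000.0 and 9682 with glucagon and 8359, 10446 and 9141 with vehicle, with a log2 difference of 0.048 ± 0.065 (adjusted p = 0.676). Got1, the cytosolic aspartate aminotransferase, rose to 8628 ± 191 with glucagon, against 2913 ± 113 with vehicle (SD, n = 3 each), a log2 difference of 1.57 ± 0.04. Mdh2 and Gpt2 rose by 0.37 and 0.34, whereas the mitochondrial Pck2 fell by 0.27 ± 0.054 and Sds, which makes pyruvate from serine, had a log2 difference of -0.53 ± 0.10. Foxo1, the forkhead factor that insulin restrains, differed by 0.12 ± 0.083 (adjusted p = 0.382). The study's main genes G6pc and Pck1 are in this list, so it is not independent evidence of its direction.

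Among 20 carriers and enzymes of lactate, glycerol and citrate entry 3 (15%) were called higher and 3 (15%) lower. Over all tested genes 9.35% were higher and 9.53% lower. Slc25a25, the calcium-regulated mitochondrial ATP-Mg/phosphate carrier, rose to 5576, 5560.0 and 5721 with glucagon, against 1635, 1841 and 1889 with vehicle (log2 difference 1.65 ± 0.052), with no overlap. Gpd2, the mitochondrial glycerol-3-phosphate dehydrogenase, rose by 0.52 ± 0.08. The glycerol channel Aqp9 fell by 0.35 ± 0.06 and the monocarboxylate carrier Slc16a6 also fell (-0.93 ± 0.072).

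The stable rises among glycogen genes were all of targeting subunits of protein phosphatase 1. Of 23 tested genes, 7 (30.4%) were called higher and 1 (4.3%) lower, beside 9.35% and 9.53% of all tested genes. Stable calls numbered 3 and 1, and the median was 0.15. Ppp1r3c read 227, 209.8 and 232 with glucagon and 107, 106 and 129 with vehicle (log2 difference 0.97 ± 0.11), and Ppp1r3g and Ppp1r3b rose by 0.83 and 0.39. Liver glycogen synthase Gys2 differed by 0.011 ± 0.076 and was not called. Liver glycogen phosphorylase Pygl was called at 0.19 ± 0.04, but not in the 6-library fit (adjusted p = 0.0935). Among 38 genes of glucose uptake, glycolysis and pyruvate fate 14 (36.8%) were called higher and 2 (5.3%) lower, 7 and 2 stably (median 0.12). Without vehicle library a 4 were lower. Pdk4, which inhibits pyruvate dehydrogenase, rose to 1338, 1231 and 1231 with glucagon, against 619, 639 and 669.9 with vehicle (log2 difference 0.98 ± 0.054). Its groups did not overlap. Pfkfb2, a regulator of fructose-2,6-bisphosphate, rose by 0.88 and Slc2a2, the glucose carrier GLUT2, by 0.51, while Txnip fell by 0.60.

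Amino acid handling held some of the largest rises. Slc7a2 (chr8:40862396-40922308), a carrier of cationic amino acids, read 9851, 8622 and 8189 with glucagon and 968, 1278 and 1283 with vehicle, a log2 difference of 2.92 ± 0.089 (adjusted p = 4.74e-13). Tat (chr8:109990437-109999803), tyrosine aminotransferase, read 12160.0, 11786 and 11570.0 with glucagon and 2295, 2408 and 2297 with vehicle, a log2 difference of 2.34 ± 0.041 (adjusted p = 1.22e-17). Etnppl breaks down phosphoethanolamine, which is not an amino acid, but is counted in the amino acid catabolic list. It read 1216, 1144 and 1179 with glucagon and 139, 160.3 and 121 with vehicle, a log2 difference of 3.08 ± 0.079. None of these overlapped between groups, which the rule that picked the largest rises required. Of 47 amino acid catabolic genes 15 (31.9%) were called higher, 13 stably, and 1 (2.1%) lower, beside 9.35% and 9.53% of all tested genes. The median of the list was only 0.034. Leaving out vehicle library c raised the lower calls to 4. With Tat, Got1 and Etnppl the stable rises included Oat for ornithine (0.82), Aldh4a1 for proline (0.74), Cbs for homocysteine (0.54), Hal for histidine (0.51), Gls2 for glutamine (0.41), Gldc for glycine (0.41) and Aass for lysine (0.40). In the urea cycle list 3 of 12 genes (25%) were called higher and none lower (median 0.13). Slc25a15, the mitochondrial ornithine carrier, rose to 2585, 2305 and 2388 with glucagon, against 996, 988 and 1044 with vehicle (log2 difference 1.26 ± 0.051), without overlap. The entry enzyme Cps1 differed by 0.12 ± 0.071 and arginase Arg1 by -0.18 ± 0.072, and neither passed. Cps1 was called at 0.20 without vehicle library b, and Arg1 at -0.25 without glucagon library 3, at -0.24 without vehicle library c and at -0.22 with scaling by library total. Ass1 passed at 0.38 ± 0.13 in the main fit and in the fit of the 6 libraries, but in none of the fits that left out a library.

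Of 30 amino acid carriers 3 were called higher and 5 lower (16.7% lower), beside 9.35% and 9.53% of all tested genes. Leaving out glucagon library 1 raised the higher calls to 5. Beside Slc7a2, the aromatic amino acid carrier Slc16a10 rose by 0.97 ± 0.057. Slc7a5, the large neutral amino acid carrier known to respond to growth and amino acid stress signals, fell by 0.79 ± 0.086. Slc7a1, the cationic carrier of most growing cells, fell to 595 ± 20.7 with glucagon, against 946 ± 225 with vehicle (SD, n = 3 each), a log2 difference of -0.64 ± 0.13 opposite in sign to that of its relative Slc7a2. Slc7a7 and Slc38a2 fell (-0.45 and -0.34).

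**Figure D3:**
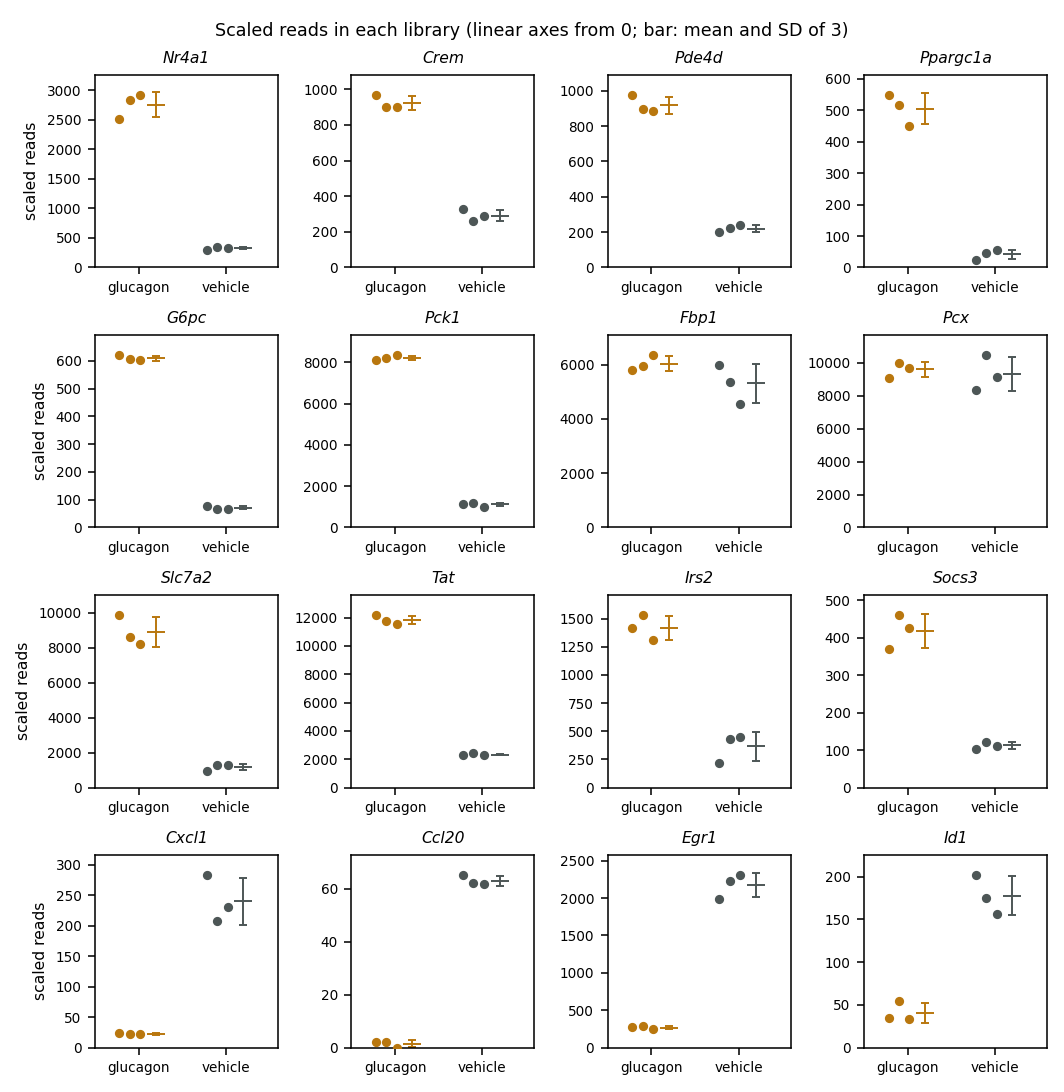
Scaled reads of 16 genes in each of the 3 glucagon libraries (left) and the 3 vehicle libraries (right) on linear axes from 0, with the mean and SD of each group beside the points. Fbp1 and Pcx overlap between the groups and the other 14 do not, and vehicle library a, drawn first, is well below the other vehicle libraries for Irs2 and Ppargc1a.

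In lipid metabolism a few regulators changed and most enzymes did not pass the test. Of 39 genes of fatty acid oxidation and ketogenesis 9 (23.1%) were called higher, 5 stably, and 2 (5.1%) lower (median 0.03). Over all tested genes 9.35% were higher and 9.53% lower. Leaving out vehicle library a raised the higher calls to 14. Cpt1a, the carnitine acyltransferase that admits fatty acids to mitochondria, read 2487, 2276 and 2247 with glucagon and 944, 1132 and 1141 with vehicle (log2 difference 1.13 ± 0.068, adjusted p = 6.38e-10). Ppara, the nuclear receptor that drives this pathway in fasting, read 777, 698 and 754 with glucagon and 340.0, 431 and 448 with vehicle (log2 difference 0.88 ± 0.087). The groups were separate for both genes. Acsl3 and Cpt2 rose by 0.91 and 0.38. Of 36 genes of triglyceride turnover 8 (22.2%) were called higher and 3 (8.3%) lower, 5 and 3 stably (median 0.087). Without vehicle library a 5 were lower. Angptl4, a secreted inhibitor of lipoprotein lipase, fell to 263, 289.6 and 254 with glucagon, against 974, 1042 and 1022 with vehicle (log2 difference -1.91 ± 0.081). G0s2, an inhibitor of adipose triglyceride lipase, fell by 0.79, as did the droplet coat gene Plin2 (-0.48), while Apoa5 rose by 0.99, Lpin1 by 0.66 and Hilpda by 0.56.

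Of 23 genes of fatty acid synthesis 4 (17.4%) were called higher and 1 (4.3%) lower, beside 9.35% and 9.53% of all tested genes. Mid1ip1, an activator of acetyl-CoA carboxylase, fell by 1.02 ± 0.076 and the elongase Elovl6 rose by 0.67 ± 0.08, while Fasn differed by -0.07 ± 0.18 and Srebf1 by -0.014 ± 0.069, neither past the threshold. Without vehicle library a Fasn was called lower at -0.33 (adjusted p = 0.0141). Of 32 cholesterol genes 6 (18.75%) were called higher and none lower, 5 stably, among them Stard4 (0.76), Sqle (0.58) and Insig1 (0.42). With vehicle library a left out 10 were higher and 2 lower. In the bile acid list of 25 genes 4 (16%) were called higher and 4 (16%) lower, 2 and 1 stably. The calls ranged up to 7 higher without vehicle library a and down to 1 lower without vehicle library b. Klb, the co-receptor for the intestinal hormone FGF15, read 128, 133 and 119 with glucagon and 36.7, 54.2 and 45.6 with vehicle (log2 difference 1.47 ± 0.12), clear of each other. Its partner receptor Fgfr4 rose by 0.33 ± 0.064, and the organic anion carrier Slco1b2 fell by 0.62 ± 0.13.

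Genes of insulin signalling changed at both receptor substrates. Irs2 (chr8:10984681-11008458), an insulin receptor substrate known as a CREB target in liver, read 1418, 1529 and 1311 with glucagon and 220.4, 432 and 448 with vehicle, a log2 difference of 2.02 ± 0.21 (adjusted p = 1.88e-05). Vehicle library a was the lowest of its group, and without it the log2 difference was 1.68. Irs1 (chr1:82233101-82291416) read 227, 245 and 199 with glucagon and 40.9, 71.0 and 76.0 with vehicle, a log2 difference of 1.87 ± 0.17. The groups did not overlap for either gene, which the rule that picked the largest rises required. Of 36 genes of insulin, IGF and FOXO signalling 6 (16.7%) were called higher and 6 (16.7%) lower, all stably (median 0.09). Over all tested genes 9.35% were higher and 9.53% lower. The study chose FOXO signalling on these samples, so this list too is not independent evidence. Socs2, the feedback inhibitor of growth hormone signalling, fell to 385, 422 and 385 with glucagon, against 1059, 853 and 941 with vehicle (log2 difference -1.25 ± 0.082). Igfbp1, a binding protein that insulin represses, fell to 4665, 4708 and 4861 with glucagon, against 7556, 7204 and 7662 with vehicle (log2 difference -0.66 ± 0.041). Neither gene overlapped between groups. Igfbp3 fell by 0.92, as did Trib3 (-0.88), the phosphatidylinositol 3-kinase subunit Pik3r1 (-0.76) and Trib1 (-0.68), while Igf1 and its carrier Igfals rose by 0.31 and 0.49.

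Cytokine feedback genes split as well. Socs3, the feedback inhibitor of STAT3 signalling, rose to 371, 459 and 426 with glucagon, against 104, 123 and 110.2 with vehicle (log2 difference 1.89 ± 0.095, adjusted p = 5.19e-11), and Stat3 itself rose by 0.58 ± 0.066. Socs1, the inhibitor of interferon signalling, fell by 1.34 ± 0.25 at 14.3 ± 3.06 with glucagon and 37.5 ± 2.93 with vehicle (SD, n = 3 each). In the acute phase list of 42 genes 4 (9.5%) were called higher and 4 (9.5%) lower (median 0.078). These shares are close to the 9.35% higher and 9.53% lower of all tested genes. Leaving out vehicle library a raised the higher calls to 12, and leaving out vehicle library c raised the lower calls to 7. The higher calls Socs3 and Stat3 are regulators and not secreted acute phase proteins. Of the secreted proteins Saa4 fell by 0.39 ± 0.081.

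Several transcription factors of hepatocyte identity rose. Of 24 tested, 12 (50%) were called higher and 3 (12.5%) lower, beside 9.35% and 9.53% of all tested genes. Stable calls numbered 11 and 3, and the median of 0.26 was the highest of the lists described here. Leaving out vehicle library a raised the lower calls to 7. Onecut1 (HNF6) read 84.8, 108 and 96.0 with glucagon and 18.9, 36.7 and 38.0 with vehicle (log2 difference 1.65 ± 0.21). Foxa2, a pioneer factor that works with CREB at fasting genes, read 472, 496 and 556 with glucagon and 217, 213 and 227 with vehicle (log2 difference 1.21 ± 0.077). Hnf4a, the nuclear receptor that defines hepatocytes, read 5499.5, 5691 and 5472 with glucagon and 3714, 4659.7 and 4374 with vehicle (log2 difference 0.39 ± 0.065). Foxa1 rose by 0.77, Zhx2 by 0.62, Tbx3 by 0.61, Foxa3 by 0.38 and Cebpa and Cebpb by 0.30 each, while Cebpd fell by 0.95. Tox, counted in the list though not a recognised hepatocyte identity factor, rose by 1.26. It stood at low levels, 36.1 ± 8.34 scaled reads with glucagon and 15.1 ± 6.30 with vehicle (SD, n = 3 each). Afp, the fetal relative of albumin, rose to 313, 302 and 319 with glucagon, against 64.0, 61.4 and 62.7 with vehicle (log2 difference 2.29 ± 0.088), with narrow spreads in both groups. Among 35 nuclear receptors 10 (28.6%) were called higher and 2 (5.7%) lower, 7 and 1 stably (median 0.044). The lower calls numbered 5 without vehicle library a and 1 without glucagon library 1 or 3 or vehicle library b.

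Periportal hepatocytes carry out most gluconeogenesis and urea synthesis in the liver lobule. Periportal markers summed to 48744 to 50298 scaled reads with glucagon and 39223 to 42205 with vehicle, without overlap. Of 13 markers 6 (46.15%) were called higher and 2 (15.4%) lower, 5 and 2 stably, beside 9.35% and 9.53% of all tested genes. Most of the difference between the sums was that of Pck1 alone. Without Pck1, a step chosen after seeing the data, the sums were 40556 to 41959.7 scaled reads with glucagon and 38209 to 41013 with vehicle, which overlap. The list also holds Etnppl, given above. Beyond them, Aldh1b1 rose by 0.57, while Cdh1 fell by 0.51 and Cyp2f2 differed by 0.14 ± 0.11 without passing. Pericentral markers summed to 30858 to 35028 scaled reads with glucagon and 28115 to 37522 with vehicle, which overlap, and Glul, the defining pericentral enzyme, was called at -0.24 ± 0.05 but not in the 6-library fit (adjusted p = 0.0506). In the clock list of 24 genes 7 (29.2%) were called higher and 4 (16.7%) lower, 3 and 3 stably. Over all tested genes 9.35% were higher and 9.53% lower. Nr1d1 (REV-ERBalpha) fell by 0.59 ± 0.073 and the repressor Ciart also fell (-0.69 ± 0.12), while Rora rose by 0.61 ± 0.11. Per1, a clock gene with a CRE, differed by 0.047 ± 0.09 (adjusted p = 0.776).

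Several chemokine genes fell steeply, and among them was the largest fall of all tested genes, that of Ccl20. Chemokine, NF-kappaB and related genes were counted together as a list. Of its 59 tested genes 7 (11.9%) were called higher and 24 lower, 4 and 19 stably, with a median of -0.22. The lower calls are 40.7% of the list, beside 9.53% of all tested genes. Without glucagon library 3 or vehicle library c the higher calls numbered 4. Ccl20, which draws lymphocytes through CCR6, read 2.17, 2.22 and 0 with glucagon and 65.1, 62.2 and 61.8 with vehicle, a log2 difference of -4.88 ± 0.41 (adjusted p = 5.15e-08). It was near the limit of detection with glucagon, so the size of this difference depends on the pseudocount and was -5.37 with 0.5 and -3.42 with 5. Cxcl1, a neutrophil chemokine, read 23.9, 22.2 and 21.7 with glucagon and 282, 207 and 231 with vehicle (log2 difference -3.34 ± 0.22). Cxcl2, its relative, read 47.8, 37.7 and 39.2 with glucagon and 274, 248 and 236 with vehicle (log2 difference -2.58 ± 0.14). Csf1, the macrophage growth factor, read 369, 407 and 419 with glucagon and 1408, 1653 and 1521 with vehicle (log2 difference -1.94 ± 0.087). Cxcl10, a chemokine that interferon induces, read 367, 352 and 374 with glucagon and 1582, 1260.0 and 1228 with vehicle (log2 difference -1.88 ± 0.09). For none of these 5 genes did the groups overlap, which the rule that picked the largest falls required.

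Members of the NF-kappaB system itself changed at smaller sizes. Of its subunits Rela and Relb fell (-0.52 and -0.57), as did the adhesion molecules Icam1 (-0.92) and Vcam1 (-0.64). Nfkbia, the inhibitor that NF-kappaB itself induces, fell with a log2 difference of -0.58 ± 0.06 and Tnfaip3, which encodes A20, with one of -0.83 ± 0.074, whereas Tnip1, a partner of A20, rose by 0.34 ± 0.072. The subunit Nfkb1 was called lower at -0.22 but not without vehicle library b nor in the 6-library fit (adjusted p = 0.141), and the other 2 subunits in the list did not pass. Ptgs2, the prostaglandin-forming cyclooxygenase-2, went the other way and rose to 63.0, 47.7 and 52.7 with glucagon, against 19.9, 20.7 and 24.7 with vehicle (log2 difference 1.28 ± 0.15). Il1rn, the interleukin-1 receptor antagonist, rose by 0.56 and Bcl3, a nuclear partner of NF-kappaB, by 0.71. Kupffer and other myeloid cells can also make many of these chemokines, and their part in these values was not tested. Of 53 interferon response genes 1 was called higher and 24 lower, 17 of the lower calls stably, with a median of -0.23, so that 45.3% were lower, beside 9.53% of all tested genes. Higher calls ranged from 0, without glucagon library 2 or 3 or vehicle library a, to 3, without vehicle library b. The falls were modest and spread over sensors, effectors and factors: Ifit3 (-0.74), Mx1 (-0.71), Ifit1 (-0.59), Irf5 (-1.11), Irf1 (-0.51), Irf9 (-0.42) and Tap1 (-0.43).

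**Figure D4:**
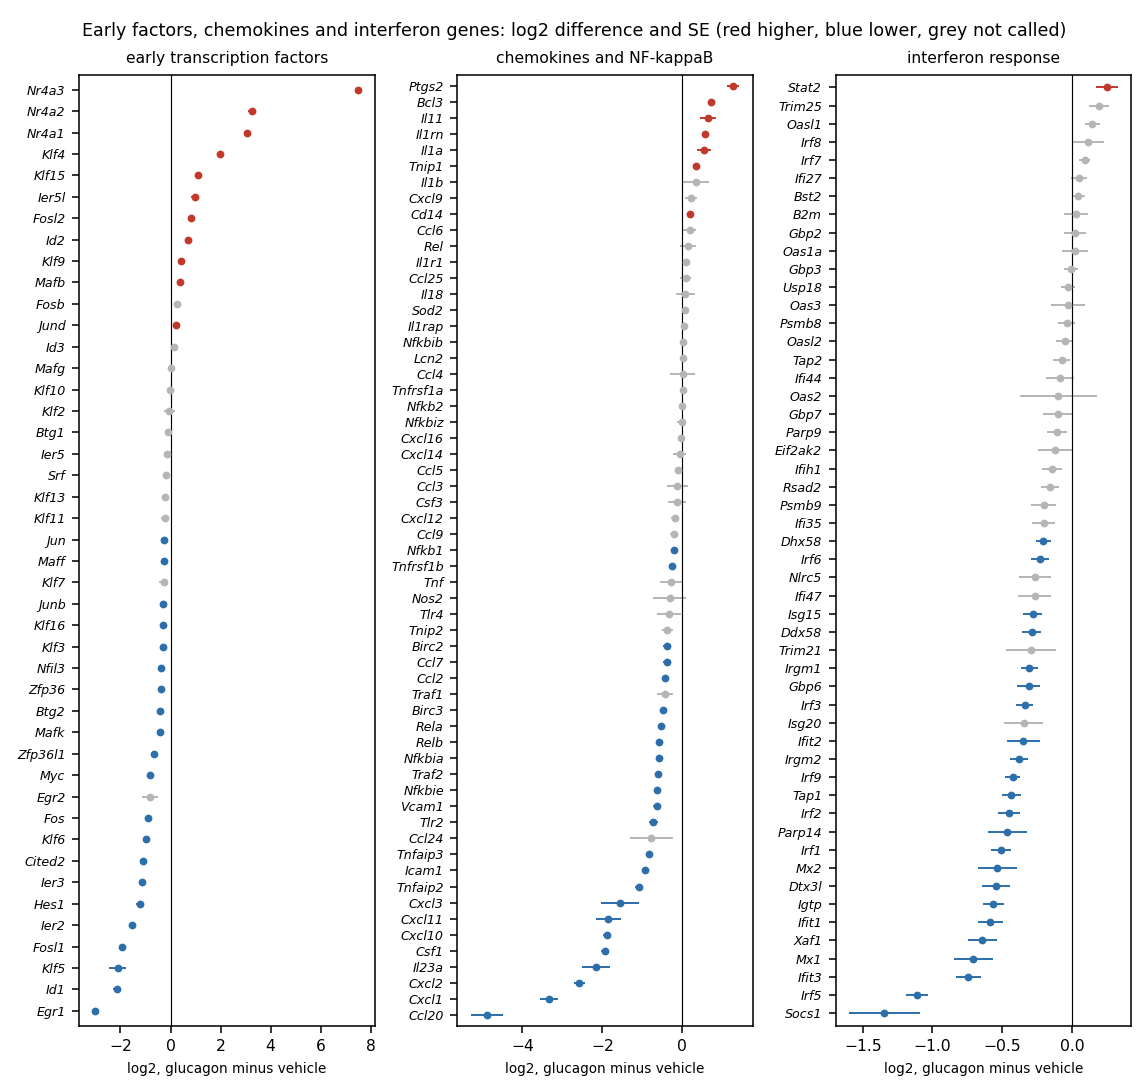
Log2 difference (glucagon minus vehicle) with its SE for the tested early transcription factors (44), chemokine and NF-kappaB genes (59) and all but 1 of the 53 interferon response genes, red where called higher, blue where called lower and grey where not called. The NR4A genes and Klf4 stand apart on the right of the first panel and Egr1, Id1 and Klf5 on the left, and blue points crowd the lower part of the other panels, whose lists each have 24 genes called lower.

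Among genes that report growth factor signalling through MAP kinases more were called lower than higher. Of 29 feedback genes of that pathway 6 (20.7%) were called higher and 10 (34.5%) lower, beside 9.35% and 9.53% of all tested genes. Stable calls numbered 5 and 9, and the list median was -0.18. Spry4 fell to 82.6, 75.5 and 68.2 with glucagon, against 155, 240.0 and 225 with vehicle (log2 difference -1.42 ± 0.17). Dusp6, the phosphatase that ERK induces against itself, fell to 903, 842 and 846 with glucagon, against 1853, 1797 and 1839.6 with vehicle (log2 difference -1.08 ± 0.054). Both genes were separate between groups. Gadd45a, Gadd45b, Dusp4 and Dusp16 fell (-1.60, -1.27, -0.85 and -0.83), as did the ERK-induced ETS factor Etv5 (-1.68). Dusp14 rose by 1.24 and Dusp1, a phosphatase with a full CRE palindrome in its window, by 0.39. Of 40 growth factors and receptors 7 (17.5%) were called higher and 8 (20%) lower, 4 and 7 stably. The ligands Pdgfb (-1.19), Hbegf (-0.73), Lif (-0.71) and Btc (-0.63) and the receptors Epha2 (-0.91) and Osmr (-0.82) fell, while the receptors Fgfr2 (0.85) and Fgfr1 (0.68) and the ligand Efna1 (0.91) rose.

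In the TGF-beta, activin and BMP list of 42 genes 4 (9.5%) were called higher and 9 (21.4%) lower, 1 and 6 stably. Over all tested genes 9.35% were higher and 9.53% lower. Higher calls fell to 2 without glucagon library 1 or vehicle library b, and lower calls to 6 without glucagon library 3 or vehicle library b or c. Inhbe, which encodes the hepatokine activin E, fell to 235, 202 and 212 with glucagon, against 398, 479 and 475 with vehicle (log2 difference -1.05 ± 0.092). Smad3 fell by 0.49, as did the BMP receptor Acvr1 (-0.71) and the BMP co-receptor Hfe2, hemojuvelin (-0.54), whereas Tgfbr1 rose by 0.93. Of 35 hepatokines 7 (20%) were called higher and 8 (22.9%) lower, 6 and 8 stably. Leaving out vehicle library a raised the higher calls to 11. Enho (adropin) and Smoc1 rose by 0.92 and 0.75, while Tsku and Adm2 fell (-0.97 and -0.75), as did Gdf15 (-0.25).

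Among genes of cell shape and adhesion more were called lower than higher. Of 53 SRF, YAP and cytoskeleton genes 6 were called higher and 16 lower, 4 and 14 stably (median -0.057), that is 11.3% higher and 30.2% lower, beside 9.35% and 9.53% of all tested genes. Rnd1, an atypical small GTPase that loosens actin fibres, fell to 701, 735 and 766 with glucagon, against 3038, 2944 and 2883 with vehicle (log2 difference -2.01 ± 0.065). Rnd3 fell by 0.88, as did the focal adhesion gene Zyx (-0.83) and the YAP targets Cyr61, Amotl2, Ankrd1 and Ctgf (-0.81, -0.63, -0.35 and -0.35). Actb (beta-actin) fell to 107060.0 ± 2178 with glucagon, against 133420.0 ± 5347 with vehicle (SD, n = 3 each), a log2 difference of -0.32 ± 0.044. Lats2, a kinase that restrains YAP, rose by 0.49 and Rhou by 0.64.

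The unfolded protein and amino acid stress list of 41 genes had 8 (19.5%) called higher and 15 (36.6%) lower, 2 and 10 stably (median -0.095). Over all tested genes 9.35% were higher and 9.53% lower. The higher calls numbered 4 without glucagon library 1 and 5 without vehicle library b. Ddit3 (CHOP), a factor of the stress response, fell to 787, 823 and 882 with glucagon, against 1859, 1697 and 1752 with vehicle (log2 difference -1.09 ± 0.07). Hspa5 (BiP), the main chaperone of the endoplasmic reticulum, fell to 26647, 25554 and 26644 with glucagon, against 35893, 33583 and 35387 with vehicle (log2 difference -0.41 ± 0.038). Both fell without overlap, which for Hspa5 the rule that picked the largest losses in scaled reads required. Sesn2, Nupr1, Herpud1 and Xbp1 fell (-0.82, -0.61, -0.57 and -0.47), while the kinase Eif2ak3 (PERK) rose by 0.69. Of 26 survival and apoptosis genes 1 (3.8%) was called higher and 7 (26.9%) lower, with 5 stable falls that included both protective and death-promoting genes. Higher calls numbered 0 without vehicle library b and 3 without vehicle library a. Bcl2l1 (BCL-XL, -1.18), Mcl1 (-0.85) and Cflar (-0.62) protect cells, and Bbc3 (PUMA, -1.21) and Bid (-0.41) promote death. Of 48 cell cycle and growth genes 8 (16.7%) were called higher and 11 (22.9%) lower, 4 and 7 stably. Among them Mycl (-1.66), Cdkn2b (-1.37) and Cdk6 (-0.64) fell and Plk3 rose (1.16).

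In the one-carbon and polyamine list 9 of 32 genes (28.1%) were called higher and 3 (9.4%) lower, 5 and 1 stably. Over all tested genes 9.35% were higher and 9.53% lower. The lower calls of the list numbered 1 without vehicle library a. Odc1, the first enzyme of polyamine synthesis and a known cAMP target, rose to 10777, 9956 and 10187 with glucagon, against 5186, 4889 and 4974 with vehicle (log2 difference 1.04 ± 0.045). Sat1, which breaks polyamines down, fell to 9846, 9016 and 9656 with glucagon, against 17816, 13804 and 14817 with vehicle (log2 difference -0.70 ± 0.074). Both differences were without overlap, which for Sat1 the rule that picked the largest losses in scaled reads required. Chdh, which begins choline breakdown, rose by 0.99 and Nnmt by 0.60. Among 30 iron and metal genes 8 (26.7%) were called higher and 3 (10%) lower, 4 and 3 stably. Alas1, the first enzyme of haem synthesis and a known target of PGC-1alpha, rose by 0.44 ± 0.041, and hepcidin (Hamp) differed by -0.047 ± 0.07 without passing. Lower calls in that list numbered 5 without vehicle library c.

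Other large changes fell outside these lists. Cemip, which takes part in hyaluronan breakdown, read 68.5, 85.5 and 64.0 with glucagon and 1.05, 4.78 and 4.75 with vehicle (log2 difference 4.16 ± 0.30). Tnfaip6, a secreted hyaluronan-binding protein, read 135, 128 and 112 with glucagon and 21.0, 27.1 and 31.4 with vehicle (log2 difference 2.21 ± 0.17). Usp2, a ubiquitin protease, read 175, 173 and 193 with glucagon and 53.5, 39.9 and 43.7 with vehicle (log2 difference 1.97 ± 0.10). All 3 were separate between groups, which the rule that picked the largest rises required. Nppc, which encodes C-type natriuretic peptide and was picked after its values were seen, read 40.2, 46.6 and 37.2 with glucagon, against 1.05, 0 and 0.95 with vehicle, where a value of about 1 is a read. Other rises among the 25 largest were Arhgef37 (2.34), Rell2 (2.08), Ncald (1.99), Slc35g2 (1.97) and Cdc42ep5 (1.87). Phlda1, a pleckstrin homology protein, fell to 792, 896 and 844 with glucagon, against 3039, 3339 and 3080.5 with vehicle (log2 difference -1.90 ± 0.062). Other falls among the 25 largest were Frmd6 (-1.73), Fhl3 (-1.67), Sh3bp4 (-1.61), Rrad (-1.55), Ivl (-1.47), E230016M11Rik (-1.67), the antisense gene Map2k3os (-1.88) and the pseudogene Hmga2-ps1 (-1.71). Reads of these last 2 cannot be told apart from those of the opposite strand or of the parent gene. E230016M11Rik (chr6:67036599-67080654, plus strand) overlaps Gadd45a (chr6:67035096-67037457, minus strand), and without a stated strand setting their reads, too, cannot be told apart.

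Differences in scaled reads also depend on transcript length and are given as a description, for called genes without overlap. Trf (transferrin), Tgm2, Tat, Slc7a2, Pck1 and Pzp gained the most reads, in that order. Tgm2, a transglutaminase, had 134740.0 ± 3049 scaled reads with glucagon and 108070.0 ± 11850.0 with vehicle (SD, n = 3 each), a log2 difference of 0.32 ± 0.061. Trf (0.12) and Pzp (0.15) lost their call in the fit of the 6 libraries (adjusted p = 0.129 and 0.215). Pzp also lost it with any glucagon library or vehicle library a or c left out. Nudt4 rose by 0.77 and Por, the reductase that serves cytochromes P450, by 0.44. Pck1 took 0.0425% of all scaled reads with glucagon and 0.00592% with vehicle. After Actb the largest loss was that of Osgin1, an oxidative stress-induced gene, which read 10813, 12014 and 11828 with glucagon and 24402, 28122 and 26425 with vehicle (log2 difference -1.19 ± 0.061). Plscr1 and Zfp36l1 were also among the 10 largest losses, at -0.53 and -0.64, and Sqstm1 (-0.19) lost its call in the 6-library fit.

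Further lists are given here beside 9.35% higher and 9.53% lower of all tested genes. Of 34 respiratory chain genes 1 (2.9%) was called higher and 1 (2.9%) lower (median 0.071). With vehicle library a left out 14 were called higher. Of 39 cytochrome P450 genes and their regulators 5 (12.8%) were called higher and none lower (median 0.10), with 12 higher without that library. Of 31 coagulation genes 5 (16.1%) were called higher and 4 (12.9%) lower, with 11 higher without it. Of 29 heat shock genes 5 (17.2%) were called higher and 2 (6.9%) lower, with 9 higher without it. In the AHR and NRF2 list 7 of 32 (21.9%) were called higher and 2 (6.25%) lower, 2 and 1 stably. Hmox1 rose by 0.29 ± 0.04. The medians of these lists lay between -0.0035 and 0.12, beside 0.015 over all tested genes.

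**Figure D5:**
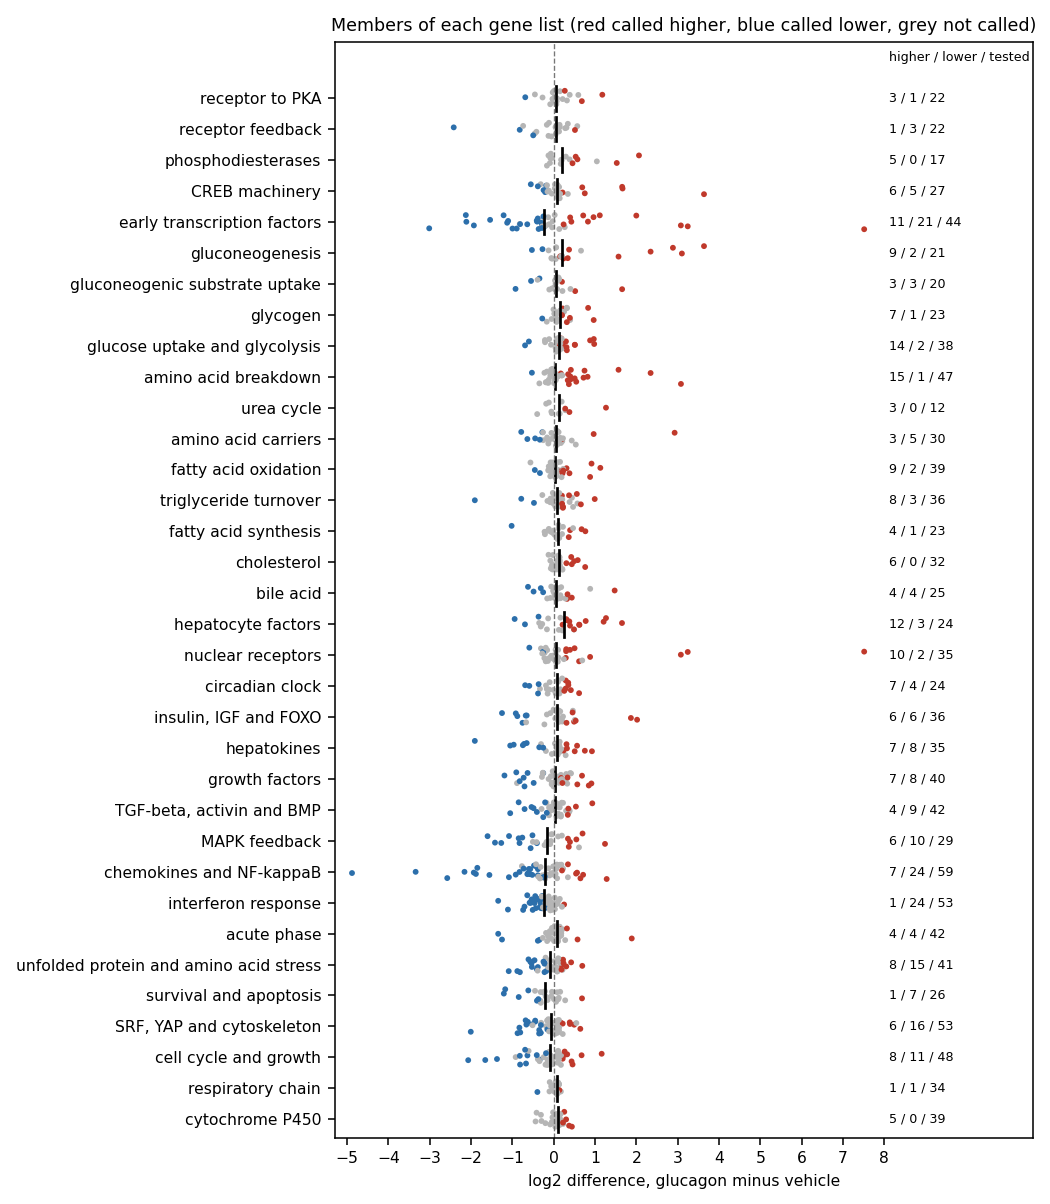
Log2 difference (glucagon minus vehicle) of every tested member of 34 gene lists, one point per gene, red where called higher, blue where called lower and grey where not called, with the list median as a black bar and the median of all tested genes as a dashed line. Counts at the right give higher calls, lower calls and tested members, and every list median lies within 0.3 of 0 while some members lie past 3 on either side.

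Set against 100 µM cAMP given for the same 3 h, glucagon differed in 543 genes (4.27%), of which 224 were higher and 319 lower with glucagon. Both stimuli share the vehicle libraries when each is set against vehicle, so their differences from vehicle are not independent. G6pc averaged 609.6 ± 9.03 with glucagon and 1356 ± 12.4 with cAMP (SD, n = 3 each), a glucagon minus cAMP log2 difference of -1.15 (adjusted p = 2.20e-09). Pck1 averaged 8221 ± 105 with glucagon and 18504 ± 415 with cAMP, a log2 difference of -1.17 (adjusted p = 2.08e-10), and Socs3 and Tat were also lower with glucagon, at -1.13 and -0.80. Among genes that fell against vehicle, Cyr61 and Actb were higher with glucagon than with cAMP, at 0.65 and 0.28. Afp and Cemip did not pass between the stimuli, with log2 differences of 0.0057 and -0.29.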

How the data were processed

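Single-end TruSeq libraries of mouse primary hepatocyte RNA were available, 3 in each of 5 groups. The submitters' processing notes name TopHat 1.3.2, Cufflinks 2.0.2 and the build mm10. Reads of a gene and of an overlapping partner may be mixed, since annotation and strand settings are not given in the sources used here. The main deposited table is a signal, estimated reads per gene that the authors multiplied by a factor per library, called scaled reads here. Low values were multiples of a step of 0.798 to 1.25 per library, and 94.5% to 98.6% of values were whole within 0.1 of a read after division by it. Because a part was not whole, no count test was run. Median-ratio factors recomputed from the columns were 1.004 to 1.006. The FPKM table computed by the authors served an alternative only. All per-sample columns mapped to a group, and 27 entries whose symbol had become a date were kept without a name.

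Kept were the 12703 genes that reached 10 scaled reads in 3 or more of 15 libraries. The values entered limma 3.58.1 (R 4.3.3) as log2(scaled reads + 1), 1 coefficient per group, moderated towards a robust mean-variance trend, and p-values were adjusted by Benjamini-Hochberg across all kept genes, with calls at 0.05. The pseudocount understates changes of low genes. The fit was tested on simulated data with known differences. The simulated libraries shared a single dispersion and none stood apart as vehicle library a did, so that feature of the data was not tested. Alternatives were the 6 compared libraries alone, other scalings, pseudocounts, filters and variance settings, sample weights, FPKM, and each library left out.

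Named genes were the study's own (G6pc, Pck1, Fbp1, Pcx, Ppargc1a, Hnf4a, Foxo1 and Stat3), the 25 largest rises and 25 largest falls among called genes without overlap and with a mean of at least 50 scaled reads in the higher group, the 10 largest gains and losses in scaled reads among these, and members of gene lists, largest called first. Mup8 met the rule but is not reported, because near-identical Mup genes share reads. Some further genes that met it are not reported here. The members and lists were chosen with earlier results of these data known. Gene coordinates are from GENCODE M21 on GRCm38, the assembly that mm10 names, and promoter windows are from RefSeq on GRCm38.p6.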

Additional observations from a re-analysis of the deposited data

How the results depend on the processing

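Of 251 genes named above, 233 were called, and 224 of these kept their call in each fit with a compared library left out and in the fit of the 6 libraries alone. Ass1, Crtc2, Nfkb1 and Pzp lost it when a library was left out, and Adcy1, Crtc2, Glul, Nfkb1, Pygl, Pzp, Sqstm1 and Trf lost it in the 6-library fit. In that fit the calls between glucagon and vehicle numbered 1294 (629 higher, 665 lower), against 2399 (1188 higher, 1211 lower) with all 15 libraries. Leaving out a compared library gave 1983 to 3098 calls, with the most when vehicle library a was left out, and the 6-library fit without that library, chosen after seeing the data, gave 2153. Higher calls ranged from 999 to 1497 and lower calls from 984 to 1601 over these leave-one-out fits. Scaling by library total moved the split to 956 higher and 1502 lower. Between glucagon and cAMP 543 genes were called, and 535 to 580 under the 3 alternatives run.

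None of the 2399 called genes changed sign under any of these alternatives. Genes near 0 that were not called did: Gys2 was -0.026 with scaling by library total and -0.011 with sample weights, Pcx -0.026 and Per1 -0.061 with sample weights, and in the 6-library fit without vehicle library a Gys2 was -0.015, Pcx -0.028, Per1 -0.072, Prkacb -0.016 and Hamp 0.013. Over the fits that left out a library these log2 differences ranged from -0.12 to 0.037 for Creb1, -0.018 to 0.25 for Cyp2f2, -0.33 to 0.072 for Fasn, -0.088 to 0.016 for Gcgr, -0.017 to 0.041 for Gys2, -0.12 to 0.013 for Hamp, -0.028 to 0.13 for Pcx, -0.072 to 0.15 for Per1, -0.025 to 0.015 for Prkaca, -0.016 to 0.15 for Prkacb and -0.0596 to 0.0396 for Srebf1.

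The count test edgeR was not run, since the scaled values are not all whole reads. No paired analysis was possible because the vehicle columns carry no number that matches them to a sample. With 17389756 to 23654973 estimated reads per library, genes under 10 scaled reads were mostly not testable, and 11644 entries were left out for that reason. Single-read sampling intervals were not used, since the variance between libraries was 2.07 to 9.41 times that of counting noise. This ratio is a median for each pair of replicates, over genes averaging at least 50 scaled reads in the pair.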
